A study of Mus musculus with 4 samples.

Results

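The genes of the mouse major histocompatibility complex (MHC) lie in the H2 locus of chromosome 17. They were taken here as all protein-coding genes of that chromosome whose symbol begins with H2-. Of 38 such genes, 35 had coordinates on the chromosome itself, among 21521 located protein-coding genes in all. The other 3, H2-Q8, H2-Q9 and H2-T18, were given only on scaffolds with coordinates of their own, so no peak could be assigned to them. By class there were 2 classical class I genes (class Ia), 23 further class I genes (class Ib), 9 class II genes and H2-Ke6. The symbol of H2-Ke6 reflects its position: it encodes a steroid dehydrogenase, known also as Hsd17b8, and no MHC molecule. The window of a gene reached from 5 kb before to 5 kb after its body. The windows held 14 distinct accessible regions of the 15237 found in the whole genome, and 2 of the 14 lay in more than 1 window.

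The data were ATAC-seq peak lists, in which a peak marks DNA that the Tn5 transposase could enter. CD8+ T cells of BALB/c mice, tumour-infiltrating by the series title, were left unstimulated or given PMA, a phorbol ester, with ionomycin for 2 h, which together act in place of a signal through the T cell receptor. Within each state they were untreated or treated with phenelzine, an antidepressant that blocks monoamine oxidases and the related histone demethylase LSD1. Each of the 4 combinations had 1 library and no replicate, so no comparison between conditions carries a test. The sources used here do not give the phenelzine dose, the tumour, the age of the animals or how many were pooled.

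The lists held 6519 peaks in unstimulated untreated, 7929 in unstimulated phenelzine, 10405 in stimulated untreated and 9322 in stimulated phenelzine-treated cells, on chromosomes 1 to 19 and X. The lists give no read totals, so depth is unknown and a missing peak is not shown to be closed DNA. Peaks entered a list from a −log10 q of 1.0 to 1.02 upwards. Fold enrichment and −log10 q are the authors' values and belong to each list, so neither they nor ranks within a list show a change between lists. In bulk libraries, a site open in few cells and a site weakly open in many cannot be told apart.

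MHC class I molecules display peptides from inside the cell to CD8+ T cells and are made by nearly all nucleated cells, T cells included. Class II molecules display peptides to CD4+ T cells and in the mouse are made mainly by dendritic cells, macrophages and B cells. Class I promoters are known for an upstream enhancer A that NF-kB binds, an interferon-stimulated response element that IRF factors bind, and an SXY module bound by the RFX complex, CREB or ATF factors and NF-Y, on which the coactivator NLRC5 acts. Class II promoters carry an SXY module read by the coactivator CIITA. H2 haplotypes differ in sequence and in number of class I genes. The reference is C57BL/6, of haplotype b, whereas BALB/c is of haplotype d, which carries the class Ia gene H2-L that the b haplotype lacks. Every position and sequence given here is therefore that of the reference.

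A promoter window was defined as the 250 bp before and 50 bp after a gene start. RefSeq windows on the GRCm38.p6 build (mm10) matched 32 of the 35 genes, those without being H2-Ab1, H2-Q1 and H2-T24. H2-K1, H2-DMa and H2-M9 had 2 entries each. For such genes the start and sequence used were those of an entry that a peak touched, or else the first listed. The start used for H2-K1 and H2-DMa was thus picked by the peaks. A peak touched the window of 8 genes in at least 1 list, 25.0% of the 32, beside 34.9% of all 17274 protein-coding genes with an entry. Their 250 upstream bases are printed because the peaks in these windows are the main evidence of access at the H2 genes. Those of H2-DMa, at -239 to -98 and -236 to -143 from its start, lay nearer to a start of another gene, Brd2. Capitals mark matches, on either strand, to ATTGG (the core of the Y box of NF-Y), TGACG (the core of the X2 box), the NF-kB site of enhancer A (the letters in capitals at -111 to -102 of H2-K1, counted from the gene start), the interferon-stimulated response element (GAAA, any 2 bases and GAAA again) and GAANNGAAA (a similar IRF-type repeat, added after the first results were seen). No match overlapped another.
H2-K1, chr17:34000348-34000597, minus strand: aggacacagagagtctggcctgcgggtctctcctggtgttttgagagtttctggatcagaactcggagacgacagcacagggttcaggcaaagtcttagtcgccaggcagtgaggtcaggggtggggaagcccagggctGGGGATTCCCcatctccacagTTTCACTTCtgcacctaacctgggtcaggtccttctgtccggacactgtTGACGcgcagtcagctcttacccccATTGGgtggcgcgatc
H2-D1, chr17:35262844-35263093, plus strand: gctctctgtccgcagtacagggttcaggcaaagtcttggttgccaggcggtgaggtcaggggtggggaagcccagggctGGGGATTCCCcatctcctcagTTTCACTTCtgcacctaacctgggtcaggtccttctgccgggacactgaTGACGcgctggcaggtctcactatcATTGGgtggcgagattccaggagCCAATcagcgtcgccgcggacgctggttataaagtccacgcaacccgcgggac
H2-Q4, chr17:35379367-35379616, plus strand: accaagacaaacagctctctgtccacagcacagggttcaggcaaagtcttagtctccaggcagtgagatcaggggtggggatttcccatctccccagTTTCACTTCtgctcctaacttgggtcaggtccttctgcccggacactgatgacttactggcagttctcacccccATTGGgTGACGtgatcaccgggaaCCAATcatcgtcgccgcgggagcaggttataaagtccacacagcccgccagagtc
H2-Q7, chr17:35438905-35439154, plus strand: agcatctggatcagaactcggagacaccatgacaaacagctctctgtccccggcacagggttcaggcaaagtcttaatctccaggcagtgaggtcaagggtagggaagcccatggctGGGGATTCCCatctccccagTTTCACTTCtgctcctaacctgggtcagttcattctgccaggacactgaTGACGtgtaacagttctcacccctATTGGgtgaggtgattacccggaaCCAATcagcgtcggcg
H2-T23, chr17:36032702-36032951, minus strand: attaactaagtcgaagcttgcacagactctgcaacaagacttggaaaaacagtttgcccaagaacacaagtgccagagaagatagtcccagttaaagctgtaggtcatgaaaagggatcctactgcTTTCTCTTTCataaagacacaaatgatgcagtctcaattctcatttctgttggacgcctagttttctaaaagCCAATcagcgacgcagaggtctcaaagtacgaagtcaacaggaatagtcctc
H2-T22, chr17:36042743-36042992, minus strand: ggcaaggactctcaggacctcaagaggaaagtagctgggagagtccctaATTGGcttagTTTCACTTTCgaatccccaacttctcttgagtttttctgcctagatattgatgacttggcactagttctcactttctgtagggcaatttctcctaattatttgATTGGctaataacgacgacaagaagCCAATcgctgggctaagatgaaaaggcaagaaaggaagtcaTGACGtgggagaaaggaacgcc
H2-M3, chr17:37269984-37270233, plus strand: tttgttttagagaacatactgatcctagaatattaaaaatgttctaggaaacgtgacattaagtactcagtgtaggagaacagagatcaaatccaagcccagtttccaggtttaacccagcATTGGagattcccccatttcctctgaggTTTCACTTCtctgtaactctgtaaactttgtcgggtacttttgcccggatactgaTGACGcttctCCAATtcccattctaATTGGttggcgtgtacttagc
H2-DMa, chr17:34122582-34122831, plus strand: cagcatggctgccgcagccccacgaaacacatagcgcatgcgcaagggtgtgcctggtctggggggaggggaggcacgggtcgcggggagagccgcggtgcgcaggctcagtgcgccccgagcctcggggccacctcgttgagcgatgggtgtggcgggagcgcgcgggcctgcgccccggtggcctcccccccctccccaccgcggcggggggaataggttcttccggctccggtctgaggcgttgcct

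Read from 5′ to 3′, H2-K1, H2-D1 and H2-Q7 carried the NF-kB site, the IRF-type repeat, the X2 core and the Y core in the same order. H2-M3 had no NF-kB match but carried the IRF-type repeat, TGACG and Y cores in that order, with a further Y core upstream at -129 to -125. In H2-Q4 the TGACG match lay between the Y cores, and in H2-T22 it lay 3′ of every Y core. H2-T23 had no TGACG in these bases. Among all 32619 promoter entries, 28 (0.0858%) held the NF-kB site in the upstream 250 bases, against 4 of the 23 class I genes with an entry: H2-K1, H2-D1, H2-Q7 and H2-Q6. H2-Q6 had no region in any list. GAANNGAAA was in 6.35% of all entries and in 8 of the 23. The interferon-stimulated response element was in 2.99% and in H2-T23 and H2-T22 alone among the 23. TGACG was in 17.9% of all entries, in 11 of the 23 class I genes and in 1 of 8 class II genes. ATTGG was in 34.0% of entries, 20 of the 23 and 7 of the 8. The one without it was H2-DMa, for which only the printed window was searched. Class I promoters are related copies, so their matches are not independent, and a match is not shown to be bound.

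H2-D1 and H2-K1, the class Ia genes, encode the molecules that present most peptides to CD8+ T cells. Both had a peak over a gene start in all 4 lists, which for H2-K1 was the one of its 2 listed starts that the peak touched. At H2-D1 the peak had a −log10 q of 21.63 in unstimulated untreated, 17.56 in unstimulated phenelzine, 24.45 in stimulated untreated and 16.28 in stimulated phenelzine-treated cells. In that order its fold enrichment was 11.24, 9.93, 11.62 and 9.54. It was the strongest H2 peak of every list by both measures, at ranks 52, 62, 55 and 66, so that 0.782%, 0.769%, 0.519% and 0.697% of the list's peaks stood above it. The merged region ran from 35262922 to 35263111 on chromosome 17. Relative to the gene start the peak spanned -172 to 17, -166 to 2, -162 to 11 and -162 to 4. In all 4 lists it covered the IRF-type repeat, the X2 core and both Y cores of the printed sequence. The NF-kB site, at -171 to -162, was wholly inside the peak in unstimulated untreated cells and extended past its 5′ edge in the other lists.

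The peak at the H2-K1 start had a −log10 q of 2.17 in unstimulated untreated, 5.52 in unstimulated phenelzine, 9.83 in stimulated untreated and 6.86 in stimulated phenelzine-treated cells. The fold enrichments were 4.55, 6.56, 8.61 and 7.22. In unstimulated untreated cells 73.6% of the list's peaks stood above it, so it was among the weaker peaks there. In the other lists the shares were 11.4%, 2.89% and 6.29%. The start used, 34000347 on the minus strand, lies inside the annotated gene body, which ends at 34000619. Relative to it the peak spanned -69 to 16, -59 to 39, -80 to 61 and -70 to 37. It covered the X2 and Y cores in every list, while the NF-kB site at -111 to -102 and the IRF-type repeat at -90 to -82 lay outside it in every list. With peaks of −log10 q of at least 3 alone, H2-K1 had no region in unstimulated untreated cells.

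H2-D1 had a further region in all 4 lists, from 35258295 to 35258445, with its centre at -4724 from the start. No annotated gene overlapped it, and the H2-D1 start was the nearest. Its −log10 q was 3.63, 1.97, 3.59 and 2.74, again in the order of the lists above, and its fold enrichment 4.62, 3.87, 4.39 and 4.18.

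**Figure D1:**
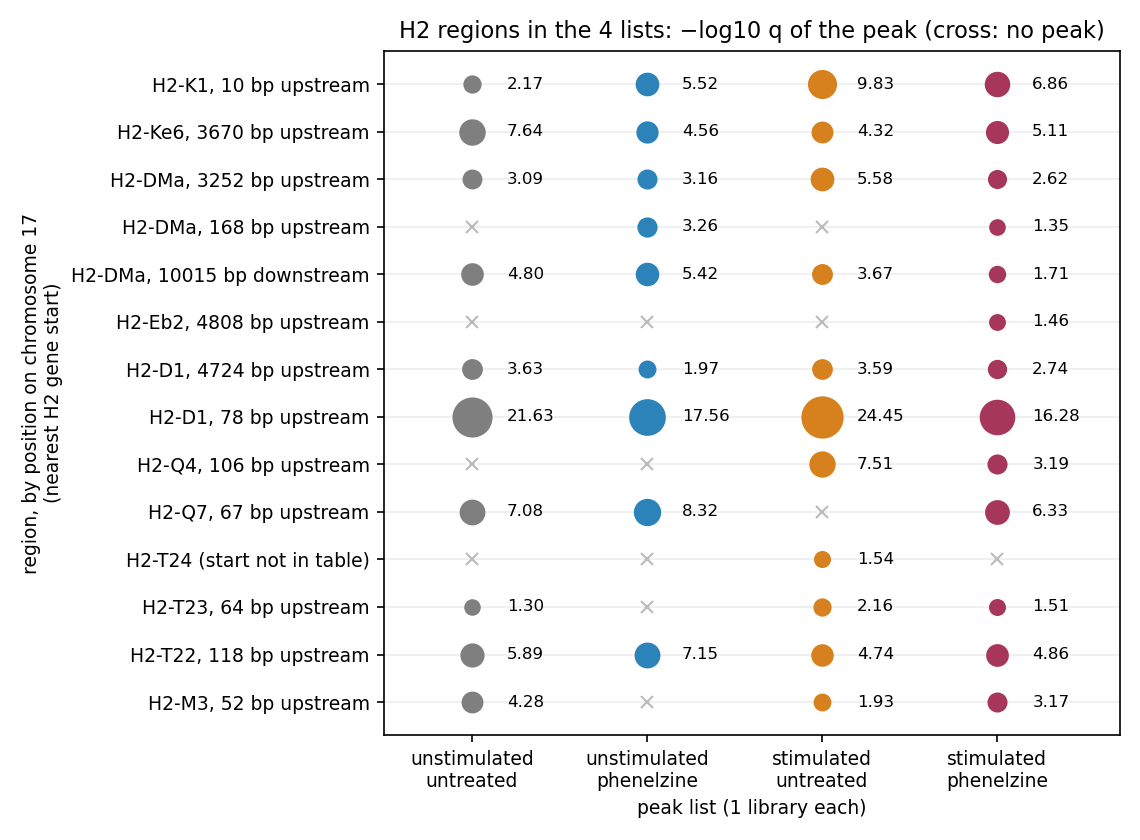
Each of the 14 H2 regions (rows, in order along chromosome 17, named by H2 gene and position) in each of the 4 lists (columns). Dot size and number give the −log10 q of the region's peak in that list and a cross marks no peak. The H2-D1 start stands at 16.28 to 24.45. A peak in every list is found for 7 regions, and the matching share of all regions in the genome was not counted.

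Class Ib genes encode class I molecules of low polymorphism with specialised tasks. Of the 23, 6 had a region in some list, beside 47.7% of all protein-coding genes. A peak touched the promoter window of 5 of the 21 with an entry, beside 34.9% of all genes with an entry. H2-T22 was the class Ib gene with a start peak in all 4 lists. It encodes a ligand of some γδ T cell receptors. Its −log10 q was 5.89 in unstimulated untreated, 7.15 in unstimulated phenelzine, 4.74 in stimulated untreated and 4.86 in stimulated phenelzine-treated cells. The fold enrichments were 6.69, 7.24, 5.71 and 5.87. These were the broadest start peaks of the class, 239 to 274 bp wide, and they covered the interferon-stimulated response element at -191 to -182 in every list. The start of Gm6034, on the other side of the region, lay 102 bp from its centre, nearer than that of H2-T22, so the peak cannot be assigned to one start.

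H2-Q7 and H2-Q4 lie in the Q cluster. H2-Q7 is one of the genes of the Qa-2 molecule. Its start peak had a −log10 q of 7.08 in unstimulated untreated, 8.32 in unstimulated phenelzine and 6.33 in stimulated phenelzine-treated cells, and the stimulated untreated list had none. The fold enrichments were 7.43, 8.02 and 6.97. These peaks were 69, 70 and 68 bp wide, and in each of the 3 lists they covered the X2 core and the 5′ Y core while the NF-kB site lay outside. H2-Q4 had a start peak in the stimulated lists and in neither unstimulated list. Its −log10 q was 7.51 (fold 7.46) in stimulated untreated cells and 3.19 (fold 5.12) in stimulated cells given phenelzine. The region ran from 35379414 to 35379607 and held the IRF-type repeat, the TGACG match and both Y cores in both lists. That TGACG lies 3′ of the first Y core, so it is not shown to be an X2 core. The presence pattern of H2-Q4 and that of H2-Q7 were the same with a −log10 q of at least 3, with lists of equal size, with either other window and with the stricter joining of peaks.

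H2-T23 encodes Qa-1, which shows leader peptides of other class I molecules to CD94/NKG2 receptors of NK and CD8+ T cells. Its start peak was weak in each list that held it, with a −log10 q of 1.30 in unstimulated untreated, 2.16 in stimulated untreated and 1.51 in stimulated phenelzine-treated cells and no peak in unstimulated phenelzine cells. None of these passed a −log10 q of 3. The peak covered the Y core in all 3 lists and the interferon-stimulated response element in stimulated untreated cells alone. H2-M3 encodes a molecule that presents N-formylated peptides. Its start peak had a −log10 q of 4.28 in unstimulated untreated, 1.93 in stimulated untreated and 3.17 in stimulated phenelzine-treated cells, again with none in unstimulated phenelzine cells. It covered the X2 core and the Y core at -36 to -32 in each of those 3 lists. H2-T24 had 1 region, in stimulated untreated cells alone, with a −log10 q of 1.54. That region, from 36023758 to 36024222, lay outside H2-T24 and inside the non-coding RNA gene A930015D03Rik.

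**Figure D2:**
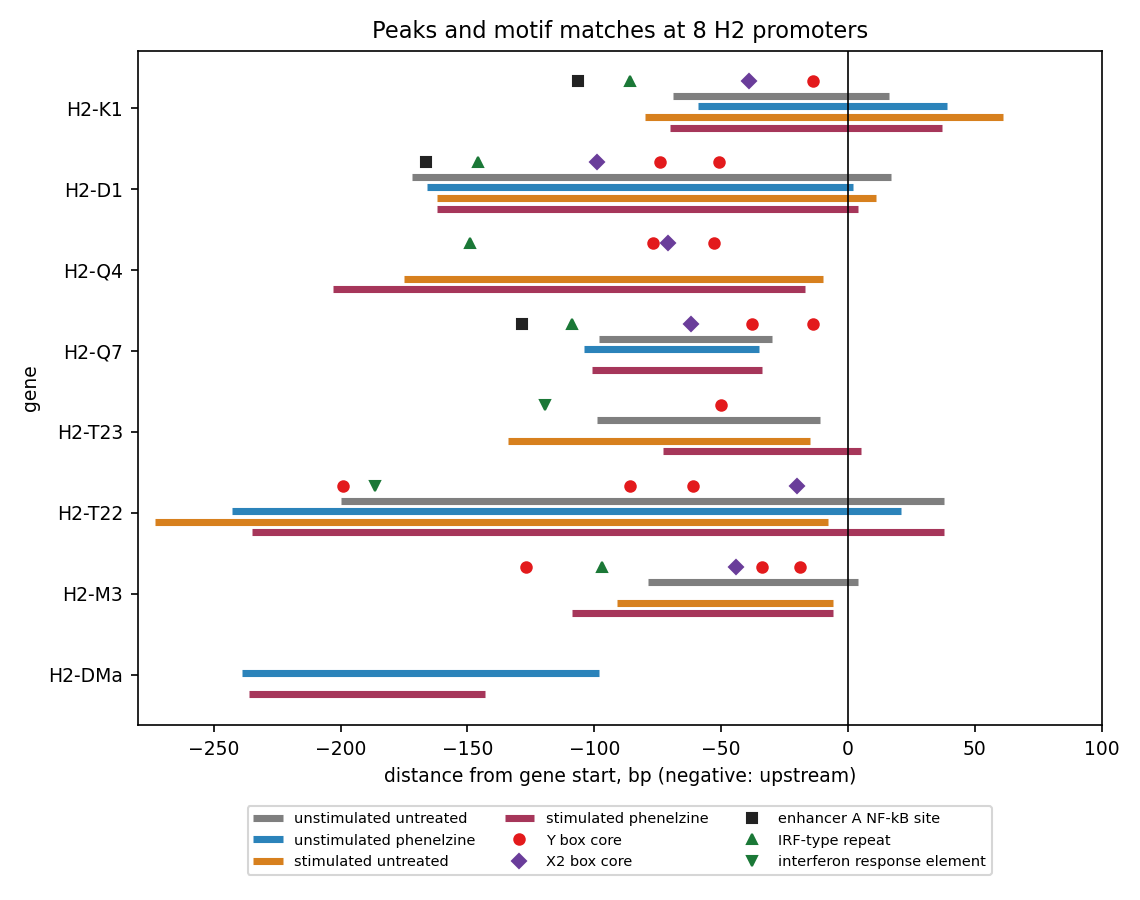
Span of the peak touching the promoter window in each list (coloured bars) and motif matches (symbols above the bars) at the 8 H2 promoters with a peak. Positions are in bp from the gene start (x axis, negative upstream). The H2-D1 peaks reach from the enhancer A NF-kB site to the start, and the H2-K1 and H2-Q7 peaks lie downstream of that site. H2-DMa has bars for the phenelzine lists alone and no motif match in the window used. The X2 symbol marks any TGACG match.

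Near-identical copies matter for these genes, since short reads from one copy can be placed at another, and how such reads were handled is not given in the sources used here. Over the 253 pairs of the 23 class I windows of 300 bases, the median identity in a global alignment was 49.1% and the range 42.1% to 90.3%. Windows are set by the annotated start, so shifted starts lower this value. The longest run shared exactly was 47 bases between H2-K1 and H2-D1, 34 between H2-Q4 and H2-Q7 and 67 between H2-Q7 and H2-Q6. H2-T23 shared 86 bases and 85.6% identity with H2-T-ps, which had no region in any list. H2-T22 and H2-M3 shared at most 12 and 11 bases with any other class I window. The H2-D1 window was 82.2% identical to that of H2-Q10 and 79.9% to that of H2-Q6. The assignment of the H2-K1, H2-D1, H2-Q4, H2-Q7 and H2-T23 peaks to their gene is therefore uncertain, and the more so in BALB/c cells mapped to another haplotype. The part of read placement in these peaks was not tested.

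**Figure D3:**
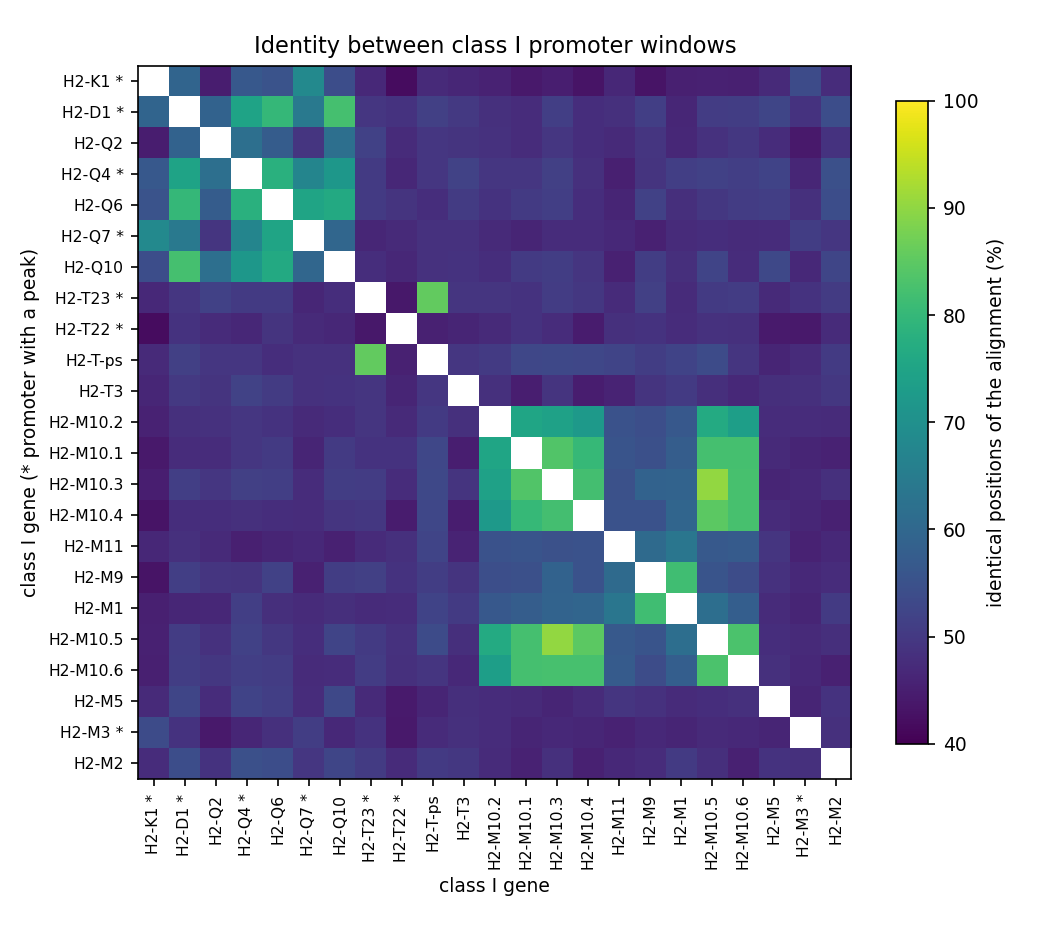
Share of identical positions in pairwise alignments of the 300-base promoter windows of 23 class I genes (rows and columns in order along the chromosome), with an asterisk for a window that a peak touched. Identity was 72.3% to 90.3% among the H2-M10 genes and ranged from 44.7% (H2-K1 and H2-Q2) to 82.2% (H2-D1 and H2-Q10) among H2-K1, H2-D1 and the H2-Q genes, while it reached at most 49.0% for H2-T22 and 53.6% for H2-M3.

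Of the 9 class II genes, 3 had a region in some list, beside 47.7% of all protein-coding genes. H2-DMa, the alpha chain of the H2-DM molecule that loads peptides onto class II, had 3 regions. The region from 34119299 to 34119860 had a peak in all 4 lists, with a −log10 q of 3.09, 3.16, 5.58 and 2.62 in the order used above. It overlapped the first bases of the annotated H2-DMa body, which begins at 34119693, through the unstimulated phenelzine peak alone. In the other lists the peak ended before that body. The region's centre lay 320 bp from a start of Brd2, which encodes a bromodomain reader of acetylated histones. The annotated body of Brd2 overlaps that of H2-DMa. The region from 34122593 to 34122734 was 56 bp from another Brd2 start and touched the printed H2-DMa window. It had a peak in the phenelzine lists, with a −log10 q of 3.26 (fold 4.85) in unstimulated and 1.35 (fold 3.75) in stimulated cells, and in neither untreated list. No motif searched was present in that window, whose GC content was 74.0%. It is 1 of 2 listed for H2-DMa, and the other was not searched for motifs. The third region, from 34135395 to 34135671 and inside the gene body, had a peak in all 4 lists, with a −log10 q of 4.80, 5.42, 3.67 and 1.71.

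H2-Eb1 and H2-Eb2, which encode beta chains of I-E molecules, shared 1 region between them. It was held by the stimulated phenelzine list alone, from 34320833 to 34320901, with a −log10 q of 1.46 (fold 4.03), and 89.8% of that list's peaks stood above it. The classical pair H2-Aa and H2-Ab1, which encode the I-A chains, had no region in any list. The same held for H2-Oa and H2-Ob, which encode the inhibitor of H2-DM, and for H2-DMb1 and H2-DMb2.

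The H2-Ke6 window held a single region in all 4 lists, with a −log10 q of 7.64, 4.56, 4.32 and 5.11. It lay at the starts of the zinc transporter gene Slc39a7 and the retinoid receptor gene Rxrb and not at that of H2-Ke6, whose start put the region's centre at -3670. In all, the gene start nearest to a region belonged to an H2 gene for 10 of the 14 regions and to another gene for 4. Among the 10 the distance ranged from 10 bp, at H2-K1, to 9716 bp, from the region inside H2-DMa to the H2-DMb2 start. Only starts with a promoter entry were compared. The regions were chosen for lying near H2 genes, which favours H2 starts, and no matching share was counted.

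No region fell in the windows of 23 H2 genes. By position these began with H2-Oa, H2-DMb2, H2-DMb1, H2-Ob, H2-Ab1 and H2-Aa, and 17 of them were class Ib, among them every H2-M gene other than H2-M3. Any region was thus found at 12 of 35 H2 genes, 34.3% (exact Clopper-Pearson 95% interval 19.1 to 52.2), beside 47.7% of all protein-coding genes and 48.5% of the 134 other protein-coding genes within the 3.49 Mb that the H2 genes span. By list the share was 22.9% in unstimulated untreated, 17.1% in unstimulated phenelzine, 25.7% in stimulated untreated and 31.4% in stimulated phenelzine-treated cells, beside 30.7%, 34.3%, 39.9% and 37.3% of all genes. A peak touched the promoter window of 6, 5, 6 and 8 of the 32 H2 genes with an entry, 18.8%, 15.6%, 18.8% and 25.0%, beside 22.7%, 25.5%, 29.1% and 27.4% of all genes. Neighbours share regions, so the intervals describe counting error only.

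**Figure D4:**
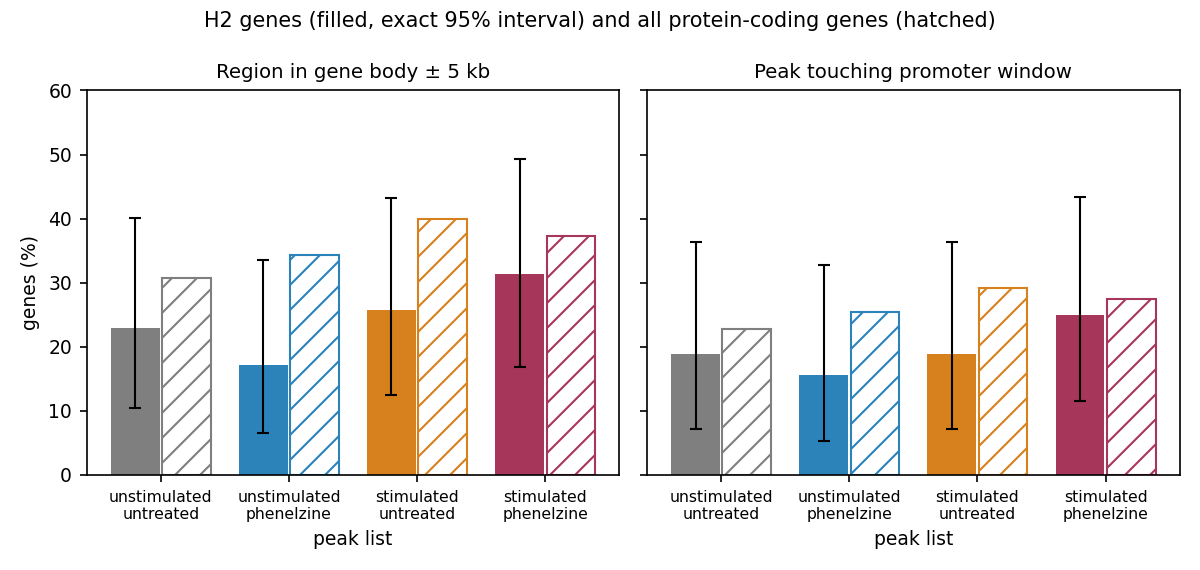
Share of genes (y axis, %) with a region in the body or within 5 kb (left) and with a peak touching the promoter window (right) in each list, for H2 genes (filled bars, with exact 95% intervals) and all protein-coding genes (hatched bars). The H2 bar is below the background bar in each list, and in 7 of the 8 pairs the background lies inside the H2 interval.

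The first comparison asked what stimulation did at the locus without phenelzine. The stimulated untreated list held 11 H2 regions and the unstimulated untreated list 10. Regions in both numbered 9, among them the H2-K1, H2-D1, H2-T22, H2-T23 and H2-M3 starts. The stimulated list alone held the H2-Q4 start and the region beside H2-T24, and the unstimulated list alone held the H2-Q7 start. More regions were thus found at 2 H2 genes (5.71%), against a background of 16.4% of all genes, and fewer at 1 (2.86%), against 3.32%. The net difference of 1 region became -2 with lists of equal size, which cut the stimulated untreated list to a −log10 q of at least 2.41 and left the other whole. The 4 comparisons share lists with each other. Their backgrounds are per gene, and the shares of all regions held by both lists or by one alone were not counted.

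In phenelzine-treated cells the stimulated list held 13 H2 regions and the unstimulated list 9. All 9 were also in the stimulated list. The 4 regions of the stimulated list alone were the starts of H2-Q4, H2-T23 and H2-M3 and the region between H2-Eb1 and H2-Eb2. The H2-T23 start lies within 5 kb of H2-T22 too, so 6 H2 genes (17.1%) had more regions, against a background of 11.1%, and none had fewer, against 6.97%. The net difference of 4 became -1 with a −log10 q of at least 3 and 0 with lists of equal size.

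Phenelzine in unstimulated cells gave 9 H2 regions against 10 without it, with 8 in both. The treated list alone held the H2-DMa region beside the Brd2 start. The untreated list alone held the H2-T23 and H2-M3 starts. More regions were found at 1 H2 gene (2.86%), against a background of 11.1%, and fewer at 3 (8.57%), H2-T23, H2-T22 and H2-M3, against 6.1%. The net difference of -1 became 0 with a −log10 q of at least 3.

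Phenelzine in stimulated cells gave 13 H2 regions against 11, with 10 in both. The treated list alone held the H2-Q7 start, the H2-DMa region beside the Brd2 start and the region between H2-Eb1 and H2-Eb2. The untreated list alone held the region beside H2-T24. More regions were found at 4 H2 genes (11.4%), against a background of 7.4%, and fewer at 1 (2.86%), against 11.5%. The net difference of 2 became -1 with a −log10 q of at least 3, and the H2-Eb1 and H2-T24 regions did not pass that limit.

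Other genes of antigen presentation were taken from a list of 30, of which 22 had a region within 5 kb in some list, beside 47.7% of all protein-coding genes, and 20 a region within 1 kb of the gene start, or of either end where no start was given. The number of regions was the same in all 4 lists for 12 of these 20. For the 20 of 30 and the 12 of 20 the matching shares over all protein-coding genes were not counted. Neither count is therefore shown to be particular to these genes. They were B2m, the light chain of class I; Tap1 and Psmb9, a peptide transporter subunit and an immunoproteasome subunit whose adjoining starts share 1 region; Psme2 of the proteasome activator; the chaperones Calr, Canx and Pdia3; Irf1; and Rfxap, Nfya, Nfyb and Nfyc of the SXY-binding complexes. The number differed between lists for the other 8, among them Creb1, Rfx5, Ctss, Irf2, Rfxank, Nlrc5 and Tapbp. Irf2, which encodes an interferon regulatory factor, had 4 regions in stimulated untreated cells and 1 in each other list. Tapbp, the gene of tapasin, had 2 in unstimulated untreated, 1 in unstimulated phenelzine and 3 in each stimulated list. Nlrc5 had 2 in stimulated untreated cells and 1 in each other list. No region was found at Ciita or at Cd74, the invariant chain that accompanies class II, nor at Tap2, Psmb8, Psme1, Erap1, Tapbpl and Irf8.

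Across the list, stimulation in untreated cells went with more regions at 5 of 30 genes and fewer at 2, and in phenelzine-treated cells with more at 2 and fewer at 0. Phenelzine went with more at 2 and fewer at 4 in unstimulated cells, and with the same numbers in stimulated cells. The backgrounds are those given for the H2 genes.

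The marker lists did not set T cells apart from other cell types, so the labelled cell type could not be checked with them. All 3 marker lists had a smaller share of genes with a region than the 47.7% of all protein-coding genes. Of 9 T cell markers, 3 had a region within 5 kb, with a summed number of 1 to 3 per list. Cd3g had one in all 4 lists and Cd3d in the unstimulated phenelzine and stimulated untreated lists, neither within 1 kb of the start. Cd5 had one in the stimulated untreated list, where the peak touched its promoter window. No other marker window was touched in any list. Entries were found for 7 T cell, 4 B cell and 8 myeloid and dendritic markers, and 34.9% of all genes with an entry were touched. Cd8a, Cd8b1, Cd3e, Lck, Zap70 and Cd2 had none. Of 8 B cell markers, 2 had a region, Cd79a and Fcer2a, neither within 1 kb of the start, and the summed number per list was 1 to 2. Ms4a1, Pax5, Cr2, Cd79b and Blk were among those with none. Of 11 markers of myeloid and dendritic cells, 4 had a region, with a summed number of 2 to 4 per list. Xcr1 and Zbtb46 had at least 1 in all 4 lists and Fcgr3 in the unstimulated phenelzine and stimulated untreated lists, none within 1 kb of the start. Cd14 had one in the stimulated untreated list within 1 kb of an end of the gene, whose start is not in the promoter table. Itgam, Itgax, Lyz2, Csf1r, Adgre1, Flt3 and Siglech had none. The part of other cell types in the class II regions was not tested.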

How the data were processed

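ATAC-seq was measured in 4 libraries of CD8+ T cells, 1 per group, as the labels name them. The build was mm10, and the tools were MACS2, HOMER, Picard, Bowtie2 2.2.5 and Trimmomatic 0.33, per the submitters' processing notes. Parameters, filters and tool order: not given in the sources used here. The authors deposited a broad peak list per library, called on that library alone. Its name carries the tag less120, not explained in the sources used here. In 99.98% to 100.0% of peaks the deposited score equals the −log10 q-value times 10, rounded down. The deposited fold enrichment is a ratio over local background, and the deposited columns of p-value and q-value are on the −log10 scale.

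Positions count from 1. Overlapping peaks (at least 1 bp) of the autosomes and X were joined into regions (Python 3.11.15, pandas 2.3.3), and each list was scored for having a peak there. Gene positions and promoters came from RefSeq (GRCm38.p6), leaving out rows on scaffolds. Windows were gene bodies with 5 kb on either side. Counts were set beside those over all protein-coding genes, with no test, and no p-value was computed. Intervals are Clopper-Pearson (SciPy 1.17.1). Promoter windows were aligned with Biopython 1.88. The joining and counting steps were tested on simulated data.

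Named were all H2 genes with a region, and of the antigen presentation list those with a region within 1 kb of the start or a difference of at least 2 regions. Some genes of these lists are not reported here by name. The members and lists were chosen with earlier results of these data known. Alternatives tried were a −log10 q of at least 3, lists of equal size, windows of 2 kb and 20 kb, and joining at 50% overlap.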

Additional observations from a re-analysis of the deposited data

Results flagged for a closer look

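Under phenelzine the number of H2 regions moved in opposite directions in the unstimulated and the stimulated cells. The net difference, treated minus untreated, was -1 region in unstimulated and 2 regions in stimulated cells. With 1 library per group this difference was not tested. With a −log10 q of at least 3 the values were 0 and -1, with lists of equal size -1 and 1, and with a window of 20 kb -1 and 0. Over the whole genome the number of regions also moved in opposite directions, with the signs the other way round. It was 6491 in unstimulated untreated and 7893 in unstimulated phenelzine cells, and 10383 in stimulated untreated and 9285 in stimulated phenelzine-treated cells.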

How the results depend on the processing

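For 9 results, the regions per list, the H2 genes with a region and the 4 net differences, 5 alternatives gave 45 values. Of these, 33 kept their direction and stayed within 1.5 times the value reported, and 3 turned in direction. With a −log10 q of at least 3, the stimulated phenelzine list held 7 H2 regions instead of 13. The net difference was then 0 for stimulation in untreated cells, -1 for stimulation in phenelzine-treated cells, 0 for phenelzine in unstimulated cells and -1 for phenelzine in stimulated cells. With the 6519 strongest peaks of each list, stimulation in untreated cells gave -2, stimulation in phenelzine-treated cells 0 and phenelzine in stimulated cells 1. With a window of 2 kb, stimulation in untreated cells gave 0. With 20 kb, the stimulated untreated list held 17 H2 regions instead of 11, stimulation in untreated cells gave 4 and phenelzine in stimulated cells 0. The limit on −log10 q leaves fewer peaks in each list. Equal size left the unstimulated untreated list whole, down to a −log10 q of 1.0. It kept unstimulated phenelzine peaks down to 1.67, stimulated untreated down to 2.41 and stimulated phenelzine down to 2.02. The wider and narrower windows test other DNA. Beyond that the cause was not tested. Joining peaks at 50% overlap changed none of the 9 results. The net differences as reported rest on 0 to 4 regions on either side. No paired analysis was possible because each group has 1 library. The depth of the libraries is unknown. With lists of equal size H2-T23 had a region in unstimulated untreated cells alone, the list in which no peak was cut. H2-M3 then had none in stimulated untreated cells, and H2-T24, H2-Eb1 and H2-Eb2 had none in any list. These weak peaks thus moved with the unlike limits set on the lists.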

Other observations

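Outside the protein-coding genes, 11 H2 pseudogenes lie on chromosome 17, and 1 of them, H2-K2, had a region within 5 kb. This region, from 33978779 to 33979076, lay at the boundary of H2-K2 with the higher coordinates. Whether that is the start or the 3′ end of H2-K2 was not determined. The region had a peak in all 4 lists. Its −log10 q was 3.74 in unstimulated untreated, 1.99 in unstimulated phenelzine, 4.66 in stimulated untreated and 3.43 in stimulated phenelzine-treated cells. H2-Ea, the I-E alpha chain gene that the reference lists as a pseudogene and that BALB/c is known to express, had none.

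Between 5 kb and 20 kb from the H2 genes lay 8 regions, that of H2-K2 included. A pair of them lay between H2-Aa and H2-Eb1, and the unstimulated untreated list held neither. The region from 34293716 to 34293830 had a −log10 q of 2.80 in stimulated untreated cells and 1.34 in stimulated cells given phenelzine. That from 34296149 to 34296283 had 1.88 in unstimulated phenelzine and 2.13 in stimulated untreated cells. The region from 35419600 to 35419669 near H2-Q6 and H2-Q7 had a peak in stimulated phenelzine-treated cells alone, with a −log10 q of 1.90. The region from 35994406 to 35994485, near H2-T24, had a peak in unstimulated untreated cells alone, with a −log10 q of 3.18. That from 36271177 to 36271939, near H2-M10.2, had a peak in all 4 lists, with a −log10 q of 1.69, 1.89, 2.32 and 1.49 in the order of the H2-K2 values. The others, near H2-DMb1 and H2-DMb2 and near H2-Q1, had a peak in stimulated untreated cells alone, with a −log10 q of 1.27 and 1.30.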
